A study of Rattus norvegicus with 6 samples.

Results

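The receptors for glutamate, GABA and glycine were followed across all arrays of the series. They were taken by gene symbol alone, as every probe set of the deposited table whose single symbol starts with Gria, Grin, Grik, Grid, Grm, Gabr, Gabbr, Glra or Glrb. This gave 74 of the 8799 probe sets, for 44 of the 4737 named genes. By class these were 10 probe sets of 4 AMPA receptor genes, 14 of 6 NMDA receptor genes, 6 of 5 kainate receptor genes, 1 of the delta receptor gene Grid1, 9 of 7 metabotropic glutamate receptor genes, 20 of 15 GABA-A receptor genes, 7 of both GABA-B receptor genes and 5 of 3 glycine receptor genes. The remaining 2 belong to Grina, which the symbol rule takes although its product is no receptor subunit.

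Glutamate is the main excitatory transmitter of the brain, and GABA and glycine are the main inhibitory transmitters. AMPA, NMDA and kainate receptors are cation channels opened by glutamate, while GABA-A and glycine receptors are chloride channels. Metabotropic glutamate and GABA-B receptors act through G proteins instead. Most of these genes are known from neurons, and some, such as Grm3 and Gabrg1, also from glia, so in a preparation of brain capillaries their RNA can come from neural material as well as from the vessel wall.

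RNA of brain capillaries from 6-week-old stroke-prone spontaneously hypertensive rats (SHRSP), an inbred model of severe hypertension that ends in stroke, was measured on 6 Affymetrix RG_U34A arrays. All 3 groups were SHRSP: controls, rats given lisinopril, an inhibitor of angiotensin-converting enzyme (ACEI, 6 mg/kg per day), and rats given olmesartan, a blocker of the angiotensin type 1 receptor (ARB, 4 mg/kg per day), with 2 arrays each. No unmanipulated strain without hypertension was analysed here. A NaCl concentration of 1% is named in the labels too, but the sources used here do not say which rats received it. Nothing says that the 2 arrays of a group came from separate rats, so p-values measure the spread between arrays, which may be technical. In bulk RNA, fewer cells of a type and less RNA per cell cannot be told apart.

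Endothelial markers were measured throughout: 16 of the 20 listed genes had probe sets, none of which was at 0, with a summed intensity of 131437 to 171876 in the controls, 123326 to 137035 with ACEI and 86447 to 96757 with ARB. Bright genes such as Slco1a4 (17074 and 79016 on the controls) weigh heavily in this sum. Of 15 genes bright enough to test, 12 were higher with ACEI (median log2 difference 0.82) and 6 with ARB (-0.26), against 46.9% and 58.1% of all probe sets tested. The controls differed by gene, with Pecam1 at 5538 on control 1 and 194 on control 2. Control 2 stood apart by RNA quality, with a ratio of 7.31 between the 3' and 5' probe sets of Gapdh against 0.933 to 1.59 on the other 5 arrays. The arrays were run on 2 days, control 1 and ACEI 1 on the earlier and the other 4 on the later. The median intensity of an array was 246 to 354 with control and ACEI and 487 and 496 with ARB. The 15 control probe sets for bacterial genes, which match no rat RNA, had a median of 18.4 to 28.8 with control and ACEI and of 91.4 and 80.9 with ARB.

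Most receptor probe sets were dim. Only 22 of the 74 lay above the 90th percentile of these foreign control probe sets on every array. Probe sets in the lowest 40% by mean were not tested. That took out 49 receptor probe sets and left 25, of 19 genes, among 5244 tested. On the log2(intensity + 90) scale, those just outside this limit were Grm6 at a mean of 8.19 and Grik2 at 8.27, and those just inside were Gabra6 at 8.41 and Gria1 at 8.48. All AMPA probe sets except 1 of Gria1, all 5 glycine receptor probe sets and Grid1 were left out. The limit used the mean of all arrays, so a probe set could pass through its ARB arrays alone: without them, the mean of Gabra2, Gabra6, Gabrg1, Gria1 and Grin3a would lie below the limit of 8.29. Counts over the 25 that passed are therefore descriptions of them and support no direction.

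**Figure D1:**
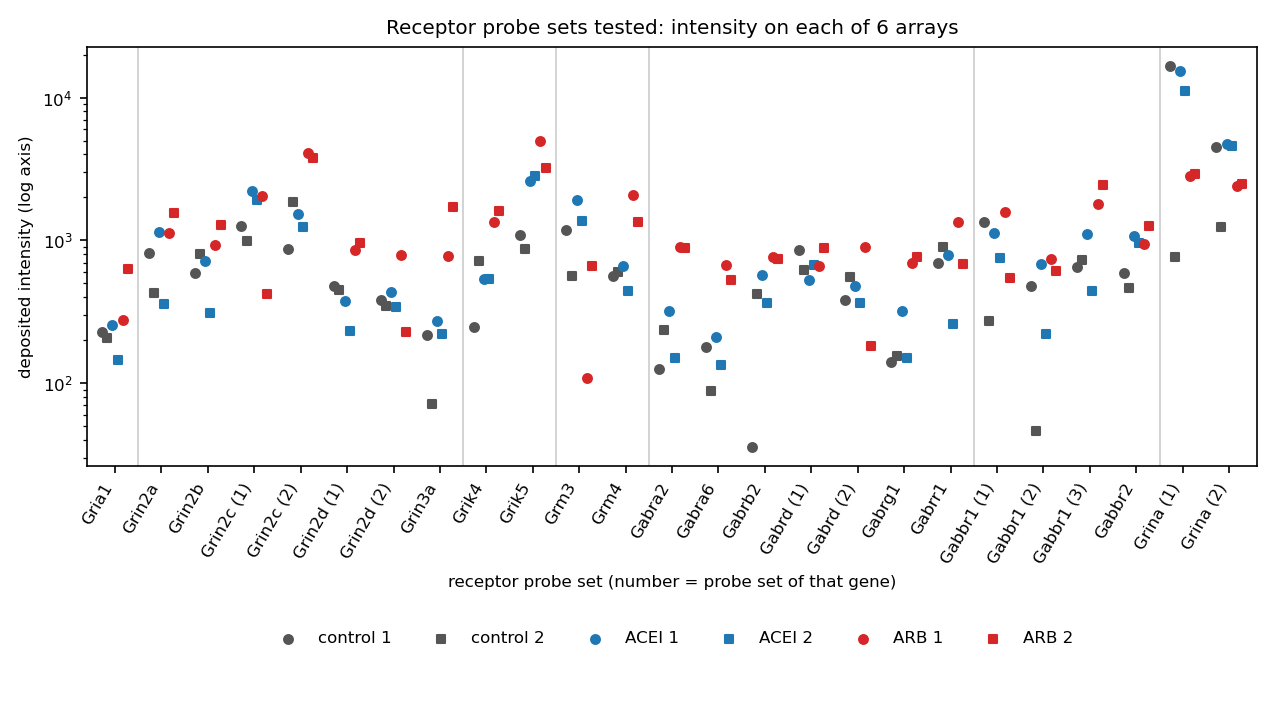
Deposited intensity (log axis) of the 25 receptor probe sets tested, on each of the 6 arrays; vertical lines separate the classes, in the order AMPA, NMDA, kainate, metabotropic glutamate, GABA-A, GABA-B and Grina. For Grik5 both controls (1085 and 867) lie below the 4 treated arrays (2602 to 4950), and for many GABA-A and NMDA probe sets only the ARB arrays stand above the rest.

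Both drugs together were compared with the controls first, as the mean of the ACEI and ARB groups minus the control mean (RAS blockade, for the renin-angiotensin system). No receptor probe set passed an adjusted p of 0.05 in limma, and neither did any other (0 of 5244, 0.0%). The lowest adjusted p of a receptor probe set was 0.863. At an unadjusted p under 0.05, 6 of the 25 were higher (Grik5, Grin3a, Gabrg1, Gabra2, Gabrb2 and Gabra6), against 3.05% of all probe sets tested, and 0 were lower, against 2.02%. Of the 6, Grin3a, Gabrg1, Gabra2 and Gabra6 passed the intensity limit only through the ARB arrays, so this count supports no direction. The median log2 difference of the 25 was 0.66, with 21 higher and 4 lower, and the median of all probe sets tested was 0.13. With quantile or cyclic loess normalization the medians were 0.53 and 0.62 against -0.03 and 0.016 for all probe sets, and Grik5 and Grin3a were the only 2 of the 6 that kept an unadjusted p under 0.05. All 4 treated arrays lay above both controls for 3 of the 25 (Grik5, Grin3a and Gabbr2), against 4.63% of all tested, and below both for 0, against 3.72%. Over all 74, 64 were higher, with a median of 0.47, against 68.8% higher and a median of 0.22 for all probe sets without the intensity limit. Leaving out each array in turn, Grik5 was the one that kept an unadjusted p under 0.05 every time. The median was 0.25 without control 2, and 2 were higher at that threshold without ACEI 1, ARB 1 or ARB 2.

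The counts for each drug stand side by side here, and the difference between them was not tested. With ACEI, 0 passed the adjusted threshold, as among all probe sets (0.0%), and Grik5 alone was higher at an unadjusted p under 0.05, against a background of 1.2%, with 0 lower against 1.39%. The median was 0.24, against -0.04 for all tested, with 18 higher and 7 lower. Both ACEI arrays lay above both controls for 6 of the 25 and below both for 1, against 11.6% and 11.9% of all tested. With ARB, 0 passed either (0.0% of all), 10 were higher at an unadjusted p under 0.05 against 12.6% of all, and 0 were lower against 4.69%. Of the 10, Gabra2, Gabra6, Gabrg1 and Grin3a passed the intensity limit only through the ARB arrays. The median was 0.94 against 0.18, with 21 higher and 4 lower, and both ARB arrays lay above both controls for 16 of the 25 and below both for 0, against 33.4% and 16.8% of all tested. The 2 comparisons share the control arrays. With ACEI the median was 0.02 without ACEI 1, 0.034 without control 2 and 0.63 without ACEI 2. With ARB the count higher was 5 without ARB 1 and 6 without ARB 2, and Grik5, Grin3a, Gabra2 and Gabrg1 kept an unadjusted p under 0.05 whichever array was left out. Grm4 lost it without ARB 1, where Gabra6 fell below the intensity limit and was not tested. Gabbr1 lost it without ARB 2, Grin2c and Grik4 without control 1, ARB 1 or ARB 2, and Gabrb2 without any array but control 2. With the run day as a term, or on the later run day alone, Grik4 and Gabrb2 lost it too.

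**Figure D2:**
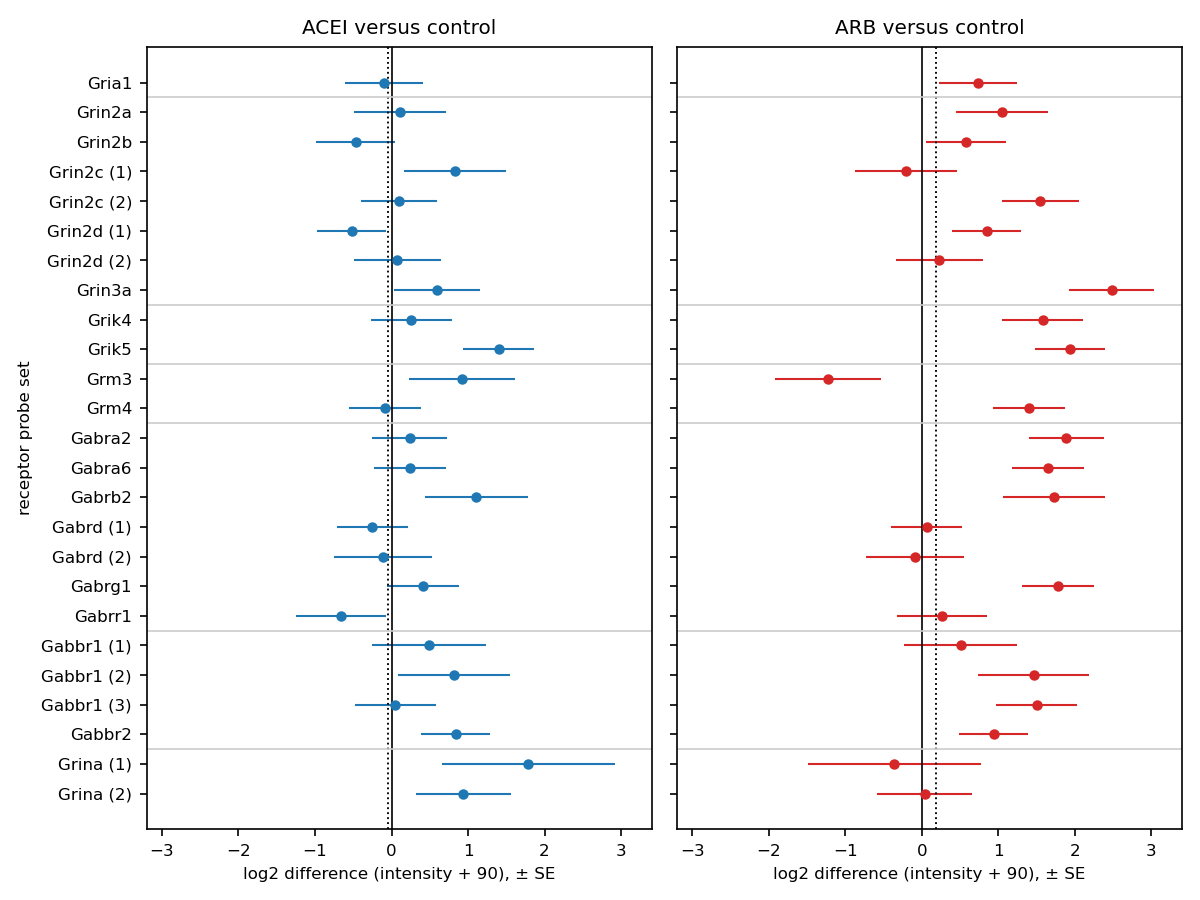
Log2 difference ± SE against the controls of the 25 receptor probe sets tested, for ACEI (left) and ARB (right); the solid line is 0 and the dotted line the median of all 5244 probe sets tested. Grik5 lies to the right in both panels (1.40 and 1.94), Grm3 lies to the right with ACEI (0.92) and to the left with ARB (-1.23), and most others lie farther to the right with ARB.

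The direct comparison of the drugs set no control array against the treated ones, although the controls entered the estimate of the spread. In ARB minus ACEI, 0 of the 25 passed the adjusted threshold (0.0% of all; lowest adjusted p 0.139 in limma). At an unadjusted p under 0.05, 9 were higher with ARB against 15.6% of all tested, and 1, Grm3, was lower against 6.71%. Of the 9, Gabra2, Gabra6, Gabrg1 and Grin3a passed the intensity limit only through the ARB arrays, so this count supports no direction. Over the 25 the median was 0.85 against 0.15, with 21 higher and 4 lower. Both ARB arrays lay above both ACEI arrays for 13 of the 25 and below both for 3, against 37.1% and 25.3% of all tested. The 4 lower were Grm3, both probe sets of Grina and 1 of Grin2c. With quantile normalization the medians were 0.54 and -0.043, and 5 were higher at an unadjusted p under 0.05. Without ACEI 2, 0 were higher at that threshold and the median was 0.51. Without ACEI 1 the median was 1.30, and without either ARB array 2 were higher, with a median of 0.56 without ARB 1.

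Among the receptor probe sets tested, the largest difference with RAS blockade was that of the kainate receptor gene Grik5. Grik5 encodes a high-affinity kainate subunit (GluK5) that forms channels only together with GluK1 to GluK3. Its intensity was 1085 and 867 in the controls, 2602 and 2806 with ACEI, and 4950 and 3208 with ARB. The groups did not overlap: both ACEI arrays lay above both controls, and both ARB arrays above both ACEI arrays. The difference with RAS blockade was 1.67 ± 0.40 (SE, 3.18-fold, n = 2 control and 4 treated arrays, limma unadjusted p = 0.00282, adjusted p = 0.863). It was 1.40 with ACEI (2.63-fold) and 1.94 ± 0.46 with ARB (3.85-fold), and ARB minus ACEI was 0.55 ± 0.46. On the earlier run day ACEI 1 was 1.20 above control 1, and on the later day ACEI 2 was 1.6 and the ARB arrays 2.09 above control 2. Leaving out any 1 array kept the difference with RAS blockade between 1.52 and 1.82. With ACEI the range was 1.25 to 1.55, and without ACEI 2 its unadjusted p no longer lay under 0.05.

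Grik4, the other high-affinity subunit, had 246 and 718 on the controls, 533 and 537 with ACEI and 1346 and 1607 with ARB. Both ARB arrays lay above all others. The difference with ARB was 1.58 ± 0.53 (3.0-fold, limma unadjusted p = 0.017), or 0.95 without control 1 and 2.22 without control 2. A term for run day gave 1.26, with an unadjusted p no longer under 0.05. Its dim probe set differed by 0.76. The 3 low-affinity subunits were dim, with differences by RAS blockade of 0.41 for Grik1, 0.66 for Grik2 and 0.23 for Grik3, so that all 6 kainate probe sets were higher. Without the intensity limit 68.8% of all probe sets were higher with RAS blockade, and 82.6% of the dim ones.

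The letters before the start of Grik5 and Grin3a are shown because these genes were the 2 with an unadjusted p under 0.05 for RAS blockade under every normalization. Grin3a passed the intensity limit only through the ARB arrays, so this choice supports no direction for it. The letters are the 250 bases before the annotated start, from RefSeq on build GRCr8, read 5′ to 3′ on the gene's strand. Grik5 lies on the minus strand at chr1:89794910-89795159, and Grin3a on the minus strand at chr5:69001559-69001808. Capitals mark a GC box.
Grik5: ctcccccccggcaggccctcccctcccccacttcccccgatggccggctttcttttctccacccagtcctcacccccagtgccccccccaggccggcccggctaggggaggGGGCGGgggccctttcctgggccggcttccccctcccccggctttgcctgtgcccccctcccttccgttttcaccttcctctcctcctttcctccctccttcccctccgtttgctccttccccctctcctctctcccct
Grin3a: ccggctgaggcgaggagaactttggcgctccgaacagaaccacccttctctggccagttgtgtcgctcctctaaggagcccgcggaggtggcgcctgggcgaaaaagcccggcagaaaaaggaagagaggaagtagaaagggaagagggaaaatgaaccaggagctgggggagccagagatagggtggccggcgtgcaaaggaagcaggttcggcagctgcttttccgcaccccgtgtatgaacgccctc
The Grik5 window is 70.8% G or C, and that of Grin3a is 60.4% G or C. Of the 43 receptor genes, 31 had such a window, with a median of 57.6% G or C (36.4 to 81.6%) against 51.2% over all 33469. On either strand, the GC box GGGCGG was found in 12 of the 31 and in 30.5% of all windows, the TATA box TATAAA in 3 and in 12.9%, the cAMP response element TGACGTCA in 0 and in 1.59%, and the E-box CACGTG in 0 and in 5.59%. The GC box was found once for Grik5, and none of the 4 motifs was found for Grin3a. These are matches of letters and not sites of a factor.

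Among NMDA receptor genes, Grin3a had the largest difference. It encodes GluN3A, a glycine-binding subunit that lowers calcium flow through the receptor. Its intensity was 218 and 71.6 on the controls, 272 and 222 with ACEI, and 774 and 1713 with ARB. All treated arrays lay above both controls, ACEI 2 by little, and the ARB arrays lay above all others. The difference was 1.54 ± 0.48 with RAS blockade (2.90-fold, limma unadjusted p = 0.0117) and 2.48 ± 0.56 with ARB (5.60-fold, unadjusted p = 0.00178, adjusted p = 0.199). ARB minus ACEI was 1.89 ± 0.56 (limma unadjusted p = 0.00842). This probe set passed the intensity limit only through the ARB arrays, so these values support no direction. Control 2 was low, and without it the difference with RAS blockade was 1.07, against 2.00 without control 1. The other 2 probe sets of Grin3a were dim: 1 differed by 0.46 with RAS blockade and 1.04 with ARB, and the other by -0.11 and 0.41.

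Grin2c encodes GluN2C, a subunit of cerebellar granule cells and of astrocytes, and its 2 probe sets differed from each other. On the first, the intensity was 874 and 1846 on the controls, 1530 and 1233 with ACEI and 4063 and 3754 with ARB. There the ARB arrays lay above all others, with a difference of 1.55 ± 0.50 (2.92-fold, limma unadjusted p = 0.0142). The other probe set had 1259 and 993 on the controls, 2205 and 1930 with ACEI, and 2040 and 420 with ARB. Both ACEI arrays lay above the controls there, the ARB arrays lay apart from each other, and the difference with ARB was -0.21. No direction for Grin2c with ARB follows from the pair.

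Grin2d, the GluN2D subunit of immature and subcortical neurons, was lower with ACEI and higher with ARB on 1 of its probe sets, at 482 and 446 on the controls, 376 and 231 with ACEI and 851 and 965 with ARB. There ARB minus ACEI was 1.36 (limma unadjusted p = 0.016), and on its other probe set 0.16. The main forebrain subunits Grin2a and Grin2b had ARB differences of 1.05 and 0.58, and ACEI differences of 0.11 and -0.47, on the probe sets tested. For Grin2b the difference with RAS blockade was 0.057 and changed sign with the normalization (-0.094 quantile, -0.12 cyclic loess). The dim probe set of Grin2a differed by 0.052 with RAS blockade and 0.64 with ARB. Grin1, the subunit that all NMDA receptors share, was dim on its 4 probe sets, with differences of -0.29 to 0.59 with RAS blockade and 0.31 to 1.22 with ARB.

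AMPA receptors carry most fast excitation, and their 10 probe sets gave little signal. Gria1 (GluA1) had 229 and 206 on the controls, 256 and 146 with ACEI and 276 and 633 with ARB on the probe set tested. The ARB arrays lay above the others by little for ARB 1. This probe set passed the intensity limit only through the ARB arrays. The difference with RAS blockade was 0.32, or -0.0067 with quantile normalization. The 2 dim probe sets of Gria1 differed by 0.63 and 0.46 with RAS blockade. Gria2, the subunit that limits calcium entry, differed by 0.79 and 0.11, and by 0.91 with ARB on both. Gria3 differed by 0.51 and 0.066, and Gria4 by 0.47 to 0.93, with 0.82 to 1.73 for Gria4 with ARB. All 10 were thus higher with RAS blockade and with ARB, 9 of them dim, in the range where the foreign control probe sets were also higher. Of all dim probe sets 82.6% were higher with RAS blockade and 86.9% with ARB.

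Grid1, the delta receptor of synapse adhesion, differed by -0.034 with RAS blockade.

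Of the metabotropic glutamate receptors, Grm3 and Grm4 were tested, and with ARB their differences had opposite signs. Grm3 encodes mGlu3, a receptor of astrocytes and neurons that lowers cAMP. Its intensity was 1180 and 559 on the controls, 1918 and 1374 with ACEI, and 109 and 662 with ARB. Both ACEI arrays lay above both controls, and both ARB arrays lay below both ACEI arrays, with ARB 2 between the controls. ARB minus ACEI was -2.15 ± 0.69 (4.43-fold lower, limma unadjusted p = 0.0131), ACEI minus control 0.92 and ARB minus control -1.23 ± 0.69. With quantile normalization ARB minus ACEI was -2.51. Within the later run day it was -1.92. It ranged from -1.19 without ARB 1 to -3.11 without ARB 2, and its unadjusted p no longer lay under 0.05 without ACEI 1 or ARB 1, on the later run day alone or in a fit with a term for run day.

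Grm4, the presynaptic receptor mGlu4, had 562 and 603 on the controls, 667 and 440 with ACEI and 2089 and 1356 with ARB. The ARB arrays lay above all others, and the difference with ARB was 1.40 ± 0.47 (2.64-fold, limma unadjusted p = 0.0171). Among the dim genes, Grm7 had the largest difference with RAS blockade, at 33.8 and 28.5 on the controls, 179 and 94.3 with ACEI and 470 and 293 with ARB. All 4 treated arrays lay above both controls on that probe set (1.41, unadjusted p = 0.00543 in a limma fit without the intensity limit). Its other 2 probe sets differed by 0.31 and 0.29. Grm5, a receptor coupled to calcium release, differed by 0.31 with RAS blockade and 0.61 with ARB. Grm2, Grm6 and Grm8, which like Grm3 and Grm4 lower cAMP, differed with ARB by 0.19, 1.46 and 1.18, all on dim probe sets.

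GABA-A receptors are pentamers of alpha, beta, gamma and related subunits. Gabra2 (alpha 2) had 125 and 236 on the controls, 321 and 150 with ACEI, and 901 and 884 with ARB. Gabrg1 (gamma 1) had 140 and 154, then 321 and 151, then 691 and 764 on the same arrays. Gabra6 (alpha 6, of cerebellar granule cells) had 179 and 88.8, then 210 and 134, then 676 and 531. In all 3 genes the ACEI arrays overlapped the controls and both ARB arrays lay above all others.

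With ARB the difference was 1.89 ± 0.49 for Gabra2 (3.71-fold), 1.78 ± 0.47 for Gabrg1 (3.44-fold) and 1.65 ± 0.47 for Gabra6 (3.14-fold), with limma unadjusted p-values of 0.00455, 0.00495 and 0.0075. With quantile normalization these were 1.40, 1.24 and 1.09. Without that step the differences with ACEI were 0.24, 0.41 and 0.24. Gabra2, Gabrg1 and Gabra6 passed the intensity limit only through the ARB arrays, so their ARB values support no direction. Gabra2 and Gabrg1 lie next to each other on rat chromosome 14 in the reference gene table, in a group with Gabra4 and Gabrb1. Of those neighbours, Gabra4 differed by 0.61 and 0.35 with ARB and Gabrb1 by 0.93, all on dim probe sets. Gabra6 lies next to Gabrb2 on chromosome 10.

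Gabrb2 (beta 2, of the most common GABA-A receptor) was measured by 2 probe sets. On that tested, the intensity was 35.9 and 419 on the controls, 570 and 362 with ACEI, and 762 and 737 with ARB. The controls lay far apart, so the difference with ARB of 1.73 ± 0.67 (limma unadjusted p = 0.0304) was 0.72 without control 1, 2.74 without control 2 and 1.36 in the fit with a term for run day. With RAS blockade the difference was 1.42 ± 0.58, or 0.41 without control 1 and 2.43 without control 2. On the dim probe set the controls were at 63.4 and 44.8, the ACEI arrays at 27.4 and 29.1 and the ARB arrays at 542 and 758. There ACEI was below and ARB above the controls, by -0.28 and 2.35.

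The delta subunit Gabrd, of receptors outside synapses, differed little, at -0.10 with RAS blockade on both of its probe sets. Gabrr1, a rho subunit known from retina, differed by -0.20. In both genes the treated arrays overlapped the controls. Of the 13 dim GABA-A probe sets, Gabrg3 had the next largest difference with ARB after that of Gabrb2, at 1.77. Gabra3 differed by 1.23 and 0.47 with ARB, Gabra5 by 1.21 and 0.17, Gabrp by 1.02, Gabre by 0.80 and Gabrr2 by 0.46. Gabrr3 was the only receptor probe set of the 74 with all 4 treated arrays below both controls, with a difference by RAS blockade of -0.36. Over the 20 GABA-A probe sets 18 were higher with ARB and 8 with ACEI. Without the intensity limit 69.6% and 46.1% of all probe sets were higher, and 86.9% and 44.8% of the dim ones.

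GABA-B receptors need both of their subunits. Gabbr2 had 594 and 463 on the controls, 1071 and 955 with ACEI, and 940 and 1268 with ARB. All treated arrays lay above both controls, with the drugs overlapping, and the difference was 0.89 ± 0.39 (1.86-fold, limma unadjusted p = 0.0504) with RAS blockade, 0.84 with ACEI and 0.94 with ARB. Its 2 dim probe sets differed by 1.05 and 0.80. Gabbr1 was measured by 4 probe sets. On 1 of them, at 647 and 726 on the controls, 1116 and 444 with ACEI and 1809 and 2442 with ARB, the ARB arrays lay above all others and the difference with ARB was 1.5 ± 0.53 (2.83-fold, limma unadjusted p = 0.0209). On 2 others control 2 was far below control 1 (274 against 1349, and 46.5 against 476). There the differences with RAS blockade were 0.50 and 1.14, and the first of them was -0.49 without control 2 and 1.49 without control 1. The dim probe set differed by -0.10.

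All 5 glycine receptor probe sets were dim. Glra1, the alpha subunit of adult brainstem and spinal cord, differed by 1.07 to 1.74 with ARB over 3 probe sets, and by -0.41 to 0.52 with ACEI. Glra3 had 4.6 and 72 on the controls, 4.9 and 3.5 with ACEI, and 364 and 276 with ARB. Both ARB arrays lay above all others, by 1.72 against the controls (unadjusted p = 0.00455 in the limma fit without the limit). Glra2 differed by 0.19 with ARB.

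Grina, a membrane protein once named as an NMDA receptor glutamate-binding subunit, had 16640 on control 1 and 770 on control 2, 15256 and 11121 with ACEI, and 2821 and 2932 with ARB. Its second probe set had 4529 and 1233, then 4729 and 4554, then 2404 and 2497. On both probe sets the ARB arrays lay between the controls and below both ACEI arrays, by -2.15 ± 1.13 and -0.90. The difference with RAS blockade on the first was 0.72 ± 0.98, -1.42 without control 2 and 2.86 without control 1, so it had no direction free of the choice of control.

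Where a gene had several probe sets, they often differed. Of 20 such genes, all probe sets had the same sign in 16 with RAS blockade, 9 with ACEI, 16 with ARB and 17 in ARB minus ACEI. Probe sets of type _s_at, which may match more than 1 related transcript, were 19 of the 74 and 5 of the 25 tested.

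Several measures moved together with the higher values on the ARB arrays. All 15 foreign control probe sets were higher with ARB than in the controls, by a median of 0.60 (0.29 to 1.96) on the log2(intensity + 90) scale, whereas 8 of 15 were higher with ACEI, with a median of 0.0015. Of all 3496 probe sets left out as dim, 86.9% were higher with ARB, by a median of 0.63, and 44.8% with ACEI, by -0.026. Of the 49 dim receptor probe sets, 95.9% were higher with ARB, by a median of 0.81, and 44.9% with ACEI, by -0.031. Dim receptor probe sets thus stood in the same direction as dim probe sets in general, and the part of this shift in the receptor values was not tested. For Grik5, tested at 867 or more on each array, the differences under quantile and cyclic loess normalization were 1.62 and 1.74 with RAS blockade. The part of the shift in the Grik5 values was not tested either.

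**Figure D3:**
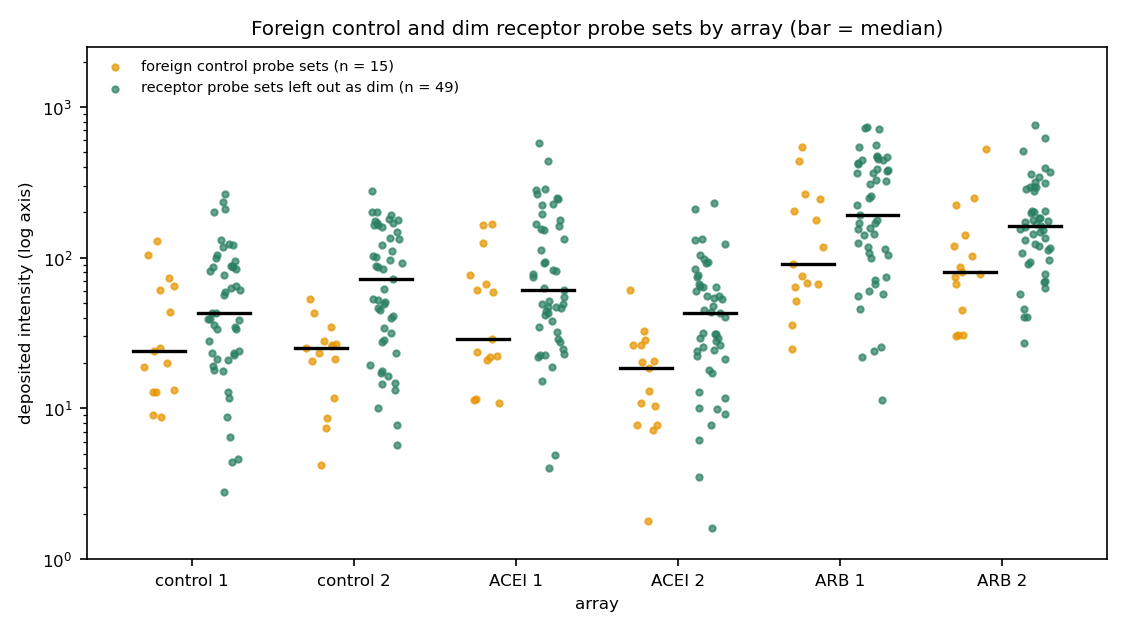
Deposited intensity (log axis) on each array of the 15 foreign control probe sets and the 49 dim receptor probe sets; the bar is the median of each. The foreign controls have medians of 18.4 to 28.8 with control and ACEI and of 91.4 and 80.9 with ARB, and the dim receptor probe sets are higher on the ARB arrays too.

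Markers of the other cell types of the preparation also differed. The summed intensity of 28 neuronal marker genes outside the receptors was 26660 to 41606 on the controls, 39955 to 46689 with ACEI and 51637 to 57950 with ARB, with none of its probe sets at 0. Of its 19 genes tested, 17 were higher with RAS blockade, with a median of 0.61, against 59.6% higher and a median of 0.13 over all probe sets tested. At an unadjusted p under 0.05, 4 of the 19 were higher in limma, against 3.05% of all: Rab3a of synaptic vesicles at 1.95, Uchl1 at 1.51, Pvalb of interneurons at 1.12 and the release protein Snap25 at 1.02. Without the ARB arrays the mean of Pvalb and, narrowly, that of Rab3a would lie below the intensity limit, so these counts support no direction. Astrocyte markers summed to 121639 to 157178, 141877 to 178458 and 164967 to 167360, oligodendrocyte markers to 12997 to 23911, 27616 to 30326 and 10359 to 10846, and microglial markers to 83486 to 92908, 61299 to 106767 and 48882 to 49579, in the same order. Pericyte markers summed to 44369 to 50909, 25661 to 32218 and 25972 to 30385. Apoe, at 65282 and 74677 with ARB and 16044 to 56467 on the other arrays, weighs heavily in the astrocyte sum. Of 10 astrocyte genes tested, 6 were higher and 4 lower with ARB (median 0.094), with Glul at -1.48 and Aldoc at -1.35. In ARB minus ACEI 4 were higher and 6 lower, with a median of -0.71. The neuronal sum was thus higher on both ARB arrays than on any other, and its part in the receptor values was not tested.

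Receptors of other transmitters that passed the intensity limit were also mostly higher with ARB. Of 53 on the array 26 were tested, and 25 of these were higher with ARB, with a median of 1.01. Over all probe sets tested 58.1% were higher, with a median of 0.18. At an unadjusted p under 0.05, 7 were higher against 12.6% of all, among them the opioid receptor Oprm1 at 2.05, the muscarinic receptor Chrm2 at 1.81 and the adrenergic receptor Adra2b at 1.77. The limit used the ARB arrays here too. Oprm1 (95.2 to 186 on the control and ACEI arrays) and Chrm2 (72.9 to 193), among others, passed it only through them. These counts therefore describe the genes that passed and support no direction. With ACEI 7 were higher and 19 lower, with a median of -0.24, against 46.9% higher and a median of -0.04 over all probe sets tested. With RAS blockade 0 passed that threshold, and the 2 largest differences were 1.05 for Oprm1 and 0.93 for Chrm2. Postsynaptic scaffolds and trafficking genes had a median of 0.33 with ARB over 20 tested, with 4 higher and 1 lower at an unadjusted p under 0.05, against 12.6% and 4.69% of all. Of the adaptors that tie metabotropic receptors to their scaffold, Homer2 was at 1.85 ± 0.48 and Homer1 at 1.33, the scaffold Shank1 was at 1.69, and Gabarap, which carries GABA-A receptors to the membrane, was at -1.18. Without the ARB arrays the mean of Shank1 would lie narrowly below the intensity limit. With RAS blockade the largest were the scaffold Dlgap1 at 0.99 and the presynaptic adhesion gene Nrxn2 at 0.88.

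Genes of GABA and glycine supply had a median of 0.64 with RAS blockade and 0.96 with ARB over 7 tested. Slc6a5, the glycine transporter of glycinergic neurons, had 76.5 and 134 on the controls, 146 and 293 with ACEI, and 1598 and 578 with ARB. All treated arrays lay above both controls, ACEI 1 by little, and the difference with RAS blockade was 1.55 ± 0.50 (limma unadjusted p = 0.0136). Slc6a5 passed the intensity limit only through the ARB arrays, so this value supports no direction. Gad1, which makes GABA, differed by 0.94 with RAS blockade and 1.25 with ARB. Genes of glutamate transport and metabolism had a median of -0.14 with RAS blockade and -0.50 with ARB over 8 tested. Slc1a1, a glutamate uptake carrier, had 2232 and 4270 on the controls and 902 to 1490 on the treated arrays, all below both controls, a difference of -1.34 ± 0.45 (limma unadjusted p = 0.0158). Glul, the glutamine synthetase of astrocytes, differed by 0.38 with ACEI and -1.48 with ARB. No member of these lists passed an adjusted p of 0.05.

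**Figure D4:**
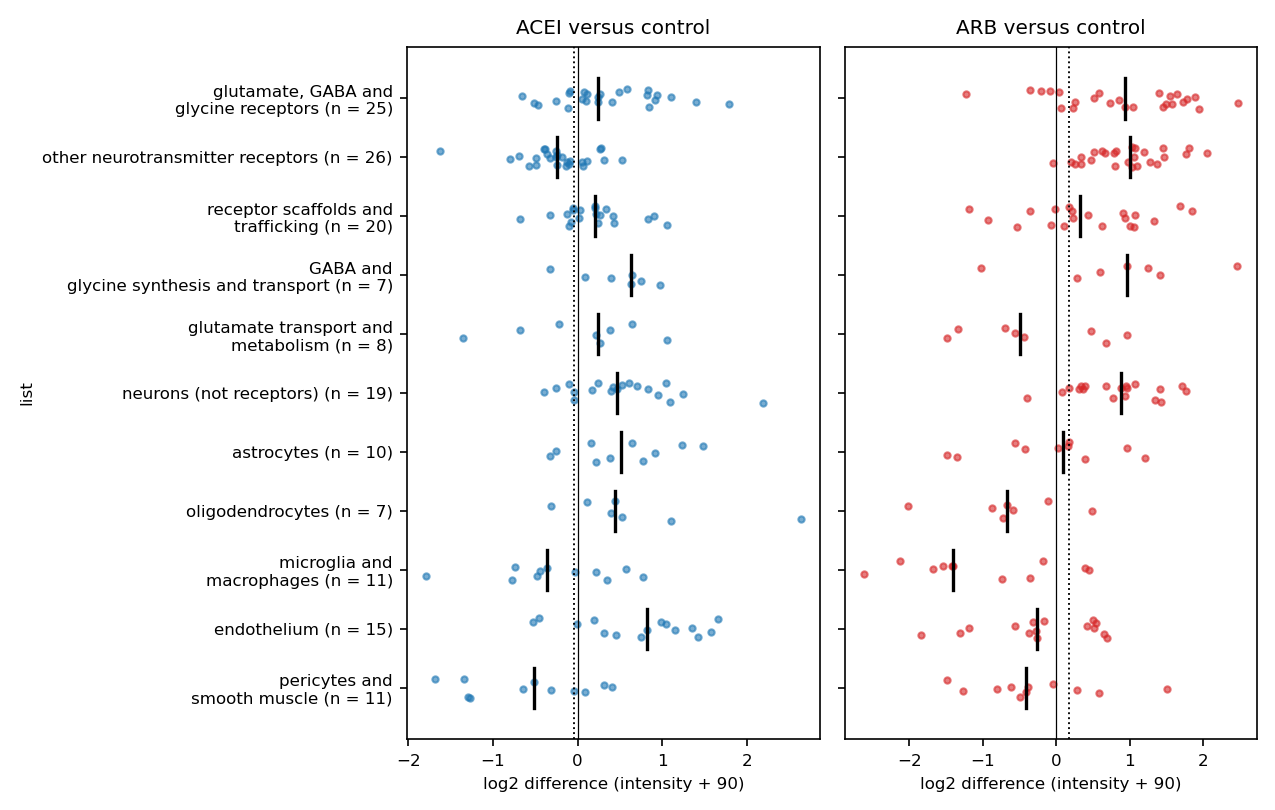
Log2 difference against the controls for ACEI (left) and ARB (right), 1 point per probe set tested for the glutamate, GABA and glycine receptors and 1 per gene for the other lists; the thick bar is the list's median, the solid line 0 and the dotted line the median of all 5244 probe sets tested. With ARB the medians of these receptors (0.94), of other transmitter receptors (1.01) and of neuronal markers (0.89) lie to the right, and that of microglial markers (-1.41) lies to the left. The units differ: with 1 probe set per gene, that of the highest mean, the median of these receptors with ARB is 1.40 over 19 genes. Every list passed the intensity limit that used the ARB arrays.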

How the data were processed

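Each deposited value is 1 intensity per probe set and array, on a linear scale. From the values, the authors had scaled each array so that its mean without the outer 2% on each side lay at 997.7 to 1002. Neither the software nor the background correction was given in the sources used here. A second deposited file of each array holds run settings in text, per the file headers. These gave the run day, which coincided with the chip lot, and the fluidics protocol, which coincided with the replicate number. Genes come from the platform's annotation: 7018 probe sets had 1 symbol, 308 several and 1473 none, and all 74 receptor probe sets had the same symbol in the RefSeq gene table.

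Values were taken as log2(intensity + 90), without the 59 control probe sets (8740 left). One mean per group was fitted over all 6 arrays with limma 3.58.1 in R 4.3.3 (lmFit, eBayes, two-sided p-values, 3 residual and 5.49 prior degrees of freedom, Benjamini-Hochberg adjustment over 5244 probe sets), and differences are given ± the model's SE. Python 3.11.15, pandas 2.3.3 and matplotlib 3.10.9 were used for summaries and figures. The fit was tested on simulated data. The number of arrays limits the precision. The members and the gene lists were chosen with earlier results of these data known. Named were members past an adjusted p of 0.05, up to 8 in each direction per comparison by size at an unadjusted p under 0.05, the highest mean and the largest difference with RAS blockade in each class, genes with several probe sets, main subunits, and, of the other lists, genes at an unadjusted p under 0.05. The ARB values of the other lists were named after they were seen. The alternatives were other offsets (none, or the median of 358.3), no intensity limit or one of 60%, quantile and cyclic loess normalization, replicate number or run day as a block, the later run day alone, a fit of the compared groups alone, and leaving out each array.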

Additional observations from a re-analysis of the deposited data

Results flagged for a closer look

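On 6 receptor probe sets both ACEI arrays lay below both controls and both ARB arrays above both controls, so that the drugs stood on opposite sides. In ARB minus ACEI, on the log2(intensity + 90) scale, these differed by 2.63 for the dim probe set of Gabrb2, 1.62 for Grm8, 1.59 for 1 probe set of Gria2, 1.36 for 1 probe set of Grin2d, 0.66 for 1 probe set of Gabra4 and 0.62 for Grik3. That of Grin2d was among those tested, and the other 5 were dim. The probe sets were picked by this pattern, so the difference was not tested on values independent of that choice. The same pattern was found in 5.47% of all 8740 gene probe sets, in 3.97% of those tested and in 7.72% of the dim ones, against 8.11% of the 74 receptor probe sets. The foreign control probe sets differed in the same direction, by a median of 0.55, with 15 of 15 higher with ARB.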

How the results depend on the processing

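No receptor probe set passed an adjusted p of 0.05 in any comparison under the other offsets, limits, normalizations and blocks, nor on the later run day alone. With only the groups compared, 1 did in ARB minus ACEI (Grina). The count higher at an unadjusted p under 0.05 with RAS blockade, 6, became 3 with the median as offset and 2 each with a 60% limit, quantile or cyclic loess normalization. With ACEI on the later run day alone the median was -0.10, against -0.22 for all probe sets tested. With ARB the count higher at that threshold was 25 of 74 without the limit and 5 with the 60% limit. With quantile normalization 1 was lower with ARB, and the median was 0.58 against -0.066 for all probe sets tested. Of the dim receptor probe sets 28.6% were higher with ARB at that threshold, against 22.6% of all dim probe sets. In ARB minus ACEI, the median was 0.51 with the median as offset. Higher at that threshold were 25 of 74 without the limit, 5 each with the 60% limit, quantile or cyclic loess, and 14 on the later run day alone (median 1.31). Of the dim receptor probe sets 32.7% were higher in ARB minus ACEI, against 25.7% of all dim probe sets. There 0 were lower with the run day as a block and 3 with only the groups compared.

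Leaving out each array, the medians over all probe sets tested were 0.055 to 0.21 with RAS blockade and -0.10 to 0.11 with ACEI. With ARB they were 0.16 to 0.32, and in ARB minus ACEI 0.12 to 0.23. Over the receptor probe sets the medians were 0.25 (without control 2) to 0.81, 0.02 to 0.63, 0.78 to 1.12 and 0.51 to 1.30, in the same order. Higher at an unadjusted p under 0.05 were 2 to 8, 0 to 4, 5 to 10 and 0 to 11, lower 0 to 1, 0 to 0, 0 to 1 and 0 to 3, and past an adjusted p 0 to 1 in each: Grina without control 1 in 3 comparisons and without control 2 in ARB minus ACEI, and Gabrb2 with ARB without control 2. A lone array was then assumed to vary like the other groups. Of 497 alternative values of 33 named results, 8 changed sign, those of Gria1 (-0.0067, quantile) and Grin2b (-0.094 quantile, -0.12 cyclic loess, -0.39 on the later run day, -0.20 to 0.31 leaving out arrays), and Gabbr1 (-0.49 to 1.49 leaving out arrays). Other members were not among the 33, and some changed sign with RAS blockade too. Leaving out arrays gave -1.42 to 2.86 for Grina, -0.64 to 0.33 for Grm3 and -0.53 to 0.14 for Gabrr1. Both probe sets of Grin2d changed sign too, at -0.046 and -0.16 with quantile and -0.065 and -0.11 with cyclic loess normalization. The cause was not tested.

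The replicate numbers did not pair the arrays: the correlations of same-numbered arrays' deviations were 0.0453 (control and ACEI), -0.0153 (control and ARB) and -0.00374 (ACEI and ARB). The replicate number coincided with the fluidics protocol, so a block for the one is a block for the other. With the replicate block, 6 were higher with RAS blockade and 11 with ARB, and 2 were lower in ARB minus ACEI. Signal over background is a limit, since 22 of the 74 lay above the 90th percentile of the foreign controls on every array.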
